A study of Mus musculus with 37 samples.

Results

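Cells make cholesterol from acetyl-CoA through the mevalonate pathway, and the adult brain makes nearly all of its own because lipoproteins of the blood do not cross the blood-brain barrier. Astrocytes are the main site of this synthesis in the adult brain. They load cholesterol onto particles built around apolipoprotein E, which neurons take up for membranes and synapses, and the transcription factor SREBP2, the product of Srebf2, switches on the synthesis genes when sterols run low. The data described here are the RNA levels of 35 genes of this system in hippocampal astrocytes of mice after a unilateral brain injury. The genes were a fixed list of symbols, mapped from the gene identifiers of the deposited tables, and form 35 of the 21975 genes measured. They fell into 7 genes of the mevalonate steps, 11 of the squalene and sterol steps (18 synthesis genes in all), 6 regulators, 6 genes of uptake, intracellular transport and esterification, and 5 of export and lipoproteins.

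The mice were adult males, labelled as genotype WT CD31 and given as CD1 in the study's methods, in which the right parietal cortex received a controlled cortical impact (an open-skull strike by a piston). Continuous EEG and video then sorted injured mice into those that developed post-traumatic epilepsy (PTE+) and those that did not (PTE-), while sham mice had the craniectomy and the electrode without the impact. Labels placed all libraries 4 months after injury, and each library held the ACSA-2 bead-selected cells of 1 hippocampus, ipsilateral or contralateral to the impact. There were 5 PTE+, 10 PTE- and 5 sham libraries from the contralateral side and 4, 8 and 5 from the ipsilateral side. They came from 20 mice, of which 17 gave both hemispheres and 3 the contralateral side alone. The study's methods give the same impact depth for all injured mice used for astrocyte isolation. Mice were sorted by an outcome and not assigned to it, so the extent of the resulting damage and the epilepsy status cannot be told apart here.

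Total counts ran from 25371887 to 55333329 per contralateral library and from 36925501 to 59846479 per ipsilateral library, and 9020 to 15545 genes were detected (a count above 0). Each of the 10 astrocyte markers was present in each of the 37 libraries (summed level 5860 to 21872 TPM), and the oligodendrocyte markers Mog, Opalin and Cldn11 were at 3 counts or fewer in 25, 27 and 21 libraries. The ipsilateral PTE- library of mouse a8_11 stood apart. It had the fewest detected genes (9020), the lowest astrocyte sum, and 26 of the 35 cholesterol genes above 3 counts, with no count at all for Idi1, Cyp51, Nsdhl, Ebp, Dhcr7 and Soat2. Results that rest on it are given with and without it, as are those that rest on the other libraries with fewer than 12000 genes detected, which were contralateral PTE- a9_14 and a9_20, ipsilateral PTE- a8_14 and ipsilateral sham a9_9. The interaction of group and hemisphere is an exception, since no fit of it left libraries out. In RNA from a pool of sorted cells, fewer cells of a type and less RNA per cell cannot be told apart.

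Promoter sequences are shown for the 4 genes on which the comparisons below turn or which serve as their reference. Of the 35 genes, 27 had a promoter in the RefSeq table used (build GRCm38.p6, 250 bases upstream of each start). The letters TCACNCCA, the core of the sterol regulatory element bound by SREBP proteins, or their reverse TGGNGTGA, occurred in 3.67% of all 32851 promoters and in 4 of the 37 promoters listed for the 27 genes, 1 each of 4 genes (Apoe, Hmgcs1, Msmo1 and Srebf2). The letters CCAAT or the reverse ATTGG occurred in 33.8% of all promoters and in 22 of the 37, of 21 genes. The 2 motifs overlapped in none of the printed windows, and capitals mark their matches. Hmgcs1, which makes HMG-CoA at the head of the pathway, held the element at -137 from its start (chr13:119690101-119690350, plus strand). Msmo1, the oxidase that removes methyl groups from sterol intermediates, held it at -177 with a CCAAT box at -160 (chr8:64733733-64733762, minus strand), and a short window is given because longer transcripts of the gene begin further upstream. Apoe held the element at -213 from 1 of its 3 listed starts (chr7:19699189-19699438, minus strand). Lcat, the enzyme that esterifies cholesterol on lipoprotein particles, held a CCAAT box at -80 (chr8:105943403-105943552, minus strand) and no TCACNCCA in this window.
Hmgcs1: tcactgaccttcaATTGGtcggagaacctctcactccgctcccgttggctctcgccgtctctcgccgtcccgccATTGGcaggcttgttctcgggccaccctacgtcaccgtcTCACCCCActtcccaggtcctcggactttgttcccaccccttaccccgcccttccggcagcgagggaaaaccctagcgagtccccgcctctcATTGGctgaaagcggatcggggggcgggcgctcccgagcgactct
Msmo1: actattcTCACTCCAtccgcgcagCCAATg
Apoe: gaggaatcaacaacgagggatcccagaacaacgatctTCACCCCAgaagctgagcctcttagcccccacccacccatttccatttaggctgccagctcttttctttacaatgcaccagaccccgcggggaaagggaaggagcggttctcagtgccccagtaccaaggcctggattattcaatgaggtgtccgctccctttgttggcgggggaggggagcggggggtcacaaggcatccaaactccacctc
Lcat: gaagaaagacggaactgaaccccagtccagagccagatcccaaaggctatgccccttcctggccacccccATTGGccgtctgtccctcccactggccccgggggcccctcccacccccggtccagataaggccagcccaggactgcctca
A match of letters is a description of the window and no evidence of binding, which was not measured.

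Levels between genes were compared in TPM, the authors' unit that corrects for transcript length and library size. Lipoprotein transcripts dominated the set. Apoe was the most abundant transcript of all genes, at a median of 60319 TPM (range 47197 to 88534), or 6.03% of all transcripts. Clu, which encodes clusterin (apolipoprotein J), had rank 3 among all genes at a median of 10441 TPM (6423 to 15303), and Lcat followed at 843 TPM. The highest synthesis gene was Msmo1 at 547 TPM, ahead of Fdps, the synthase of farnesyl pyrophosphate (279 TPM), Fdft1, or squalene synthase (219 TPM), and the squalene epoxidase gene Sqle (207 TPM). Among the regulators Srebf1 (291 TPM) stood above Insig1 (158 TPM), which holds SREBP in the endoplasmic reticulum, and Srebf2 (112 TPM). The lowest members were Abca1, the main exporter of cholesterol to apolipoproteins (11.8 TPM), the sterol carrier Stard4 (5.22 TPM), the exporter Abcg1 (2.16 TPM) and the esterifying enzyme Soat2 (0.17 TPM).

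**Figure D1:**
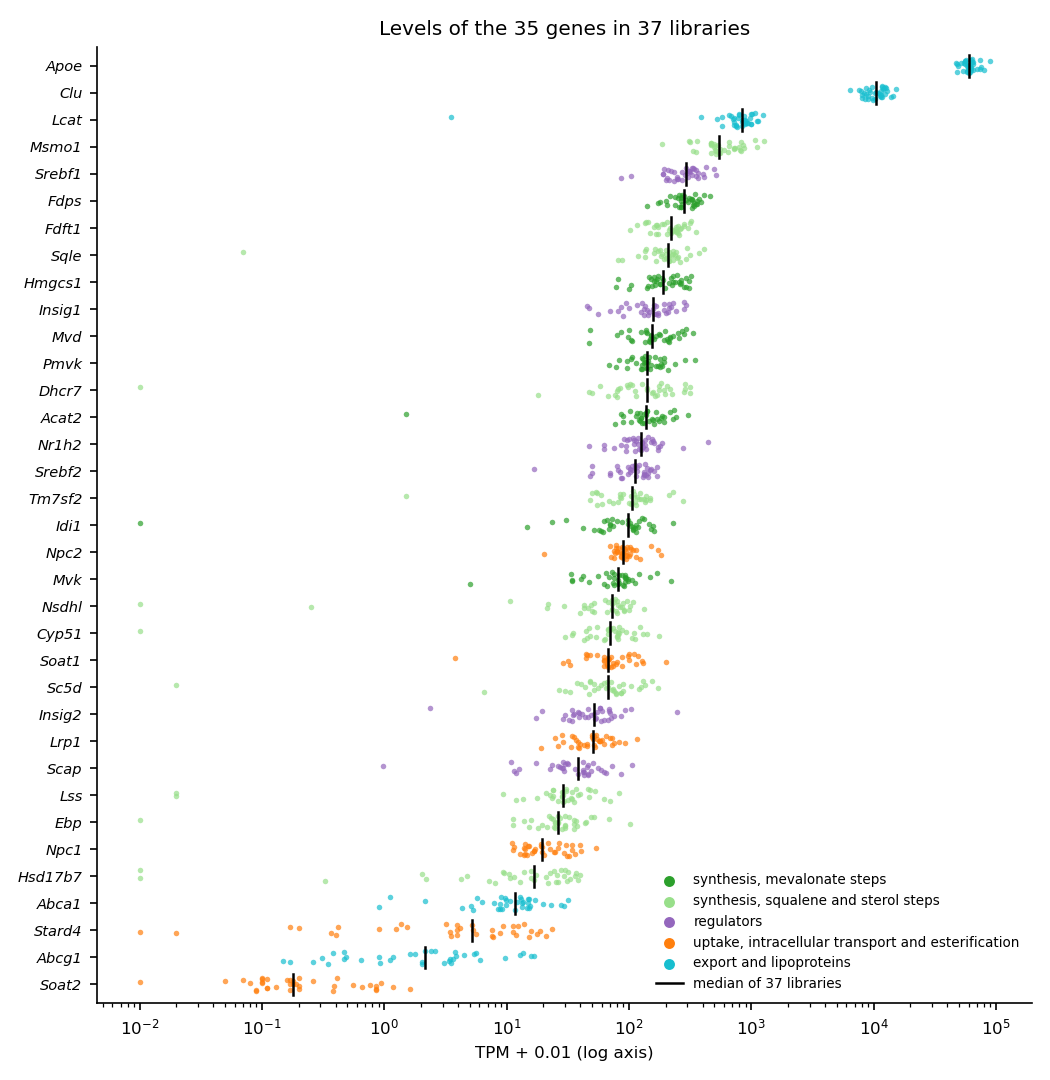
Level of each of the 35 genes in each of the 37 libraries, in TPM + 0.01 on a log axis, with a black tick at the median. Apoe and Clu sit above all others at medians of 60319 and 10441 TPM, and Soat2 lies lowest at 0.17 TPM.

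By step, the median level of a gene was 140 TPM for the mevalonate steps, 72.1 TPM for the squalene and sterol steps, 118 TPM for the regulators, 34.8 TPM for uptake, transport and esterification, and 843 TPM for export and lipoproteins, where members ran from 2.16 to 60319 TPM. The 35 genes together held 6.95% ± 0.52 (SD, n = 5) of transcripts in contralateral PTE+ libraries, 8.07% ± 0.87 (n = 10) in PTE- and 7.64% ± 1.09 (n = 5) in sham. On the ipsilateral side the shares were 7.08% ± 0.64 (n = 4), 7.17% ± 0.94 (n = 8) and 8.56% ± 1.37 (n = 5). Apoe and Clu set nearly all of this share. The 18 synthesis genes summed to 2585 ± 287 TPM in contralateral PTE+, 2617 ± 504 TPM in PTE- and 3102 ± 513 TPM in sham libraries, and to 2937 ± 608, 2325 ± 469 and 3109 ± 988 TPM on the ipsilateral side. The SDs of these sums overlapped between the groups of each hemisphere.

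The genes differed in how steady they were between mice of a group. The within-group SD of log2(CPM + 1), where CPM is the count scaled to library size by TMM, was lowest for Apoe (0.33), Clu (0.39), Fdps (0.42) and Srebf1 (0.42). It was highest for the sterol-step genes Hsd17b7 (1.63) and Nsdhl (1.62) and for Stard4 (1.63). The median over the 35 genes was 0.81, or 0.56 without the ipsilateral a8_11 library, beside 1.38 and 1.28 over the 14387 genes tested in both hemispheres. Lcat fell from an SD of 1.19 to 0.37 and Sqle from 1.45 to 0.44 when that library was left out.

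**Figure D2:**
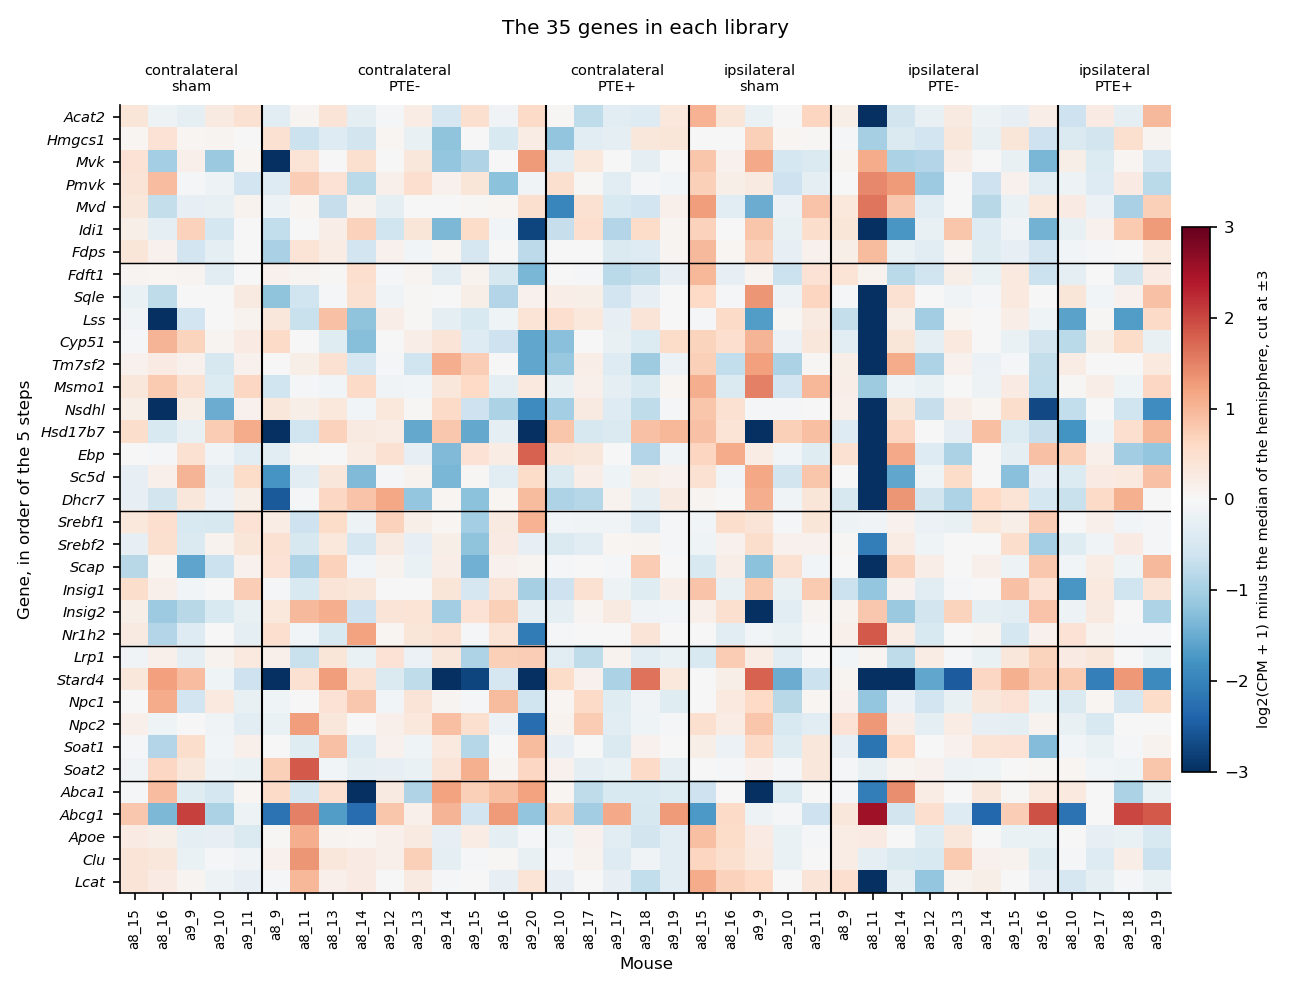
Each gene in each library as log2(CPM + 1) minus the median of its hemisphere, with colours cut at 3 on either side. The ipsilateral PTE- library of mouse a8_11 shows as a column of extremes. It is low for genes such as Cyp51 and Dhcr7 (no count) and high for others such as Mvd (461 CPM) and Nr1h2 (487 CPM). Most other cells lie close to 0.

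Group differences were tested on all genes with edgeR's quasi-likelihood test, with the 3 groups of a hemisphere in 1 fit. A gene met the study's 3 criteria when its unadjusted p was under 0.05, its fold change was 1.2 or more, and either group had a mean level of more than 5 TPM. No member passed an adjusted p (Benjamini-Hochberg over all genes) of 0.05 in any comparison with edgeR, DESeq2 or limma, and in the 6 group comparisons the members' adjusted p-values were 1 after rounding to 2 decimals. The values below are therefore those of unadjusted tests. All genes passing the same limit are given beside each count of the main fits and beside most counts of other settings.

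The comparison of PTE+ with PTE- on the contralateral side asks which differences go with epilepsy among injured mice. Their impact depth was the same by the study's methods, and the resulting lesions were not compared here. Of the 35 genes, 3 had an unadjusted p under 0.05, all lower in PTE+ and all of the lipoprotein step: Lcat, Apoe and Clu. Among all 14642 genes tested, 2.21% had such a p and 0.00683% (1 gene, not a member) an adjusted p under 0.05. The same 3 of the 33 members above the TPM limit met all 3 criteria, where 1.63% of all such genes did, or 1.19% counting the lower direction alone. DESeq2 gave 3 members at an unadjusted p under 0.05, beside 459 of all 14642 genes.

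Lcat stood at 533, 637, 536, 378 and 510 CPM in the 5 PTE+ libraries and ranged from 533 through a median of 668 to 1261 CPM in the 10 PTE- libraries. None of the PTE+ libraries reached the PTE- median. The groups overlapped, as the PTE- libraries of mice a8_9, a9_12, a9_14, a9_15 and a9_16 lay below the highest PTE+ library (637 CPM). The means were 519 ± 92.8 (SD, n = 5) and 733 ± 207 CPM (n = 10). Lcat was 1.41-fold higher in PTE- (log2 fold change -0.50 ± 0.19 SE, p = 0.0152 by edgeR's quasi-likelihood test, p = 0.0150 by a two-sided exact permutation test). The call was kept in 14 of 15 fits that left out 1 library and was lost without PTE+ a9_18 (p = 0.0556 by edgeR). It was also present in TPM (728 ± 95.4 and 910 ± 123).

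Apoe was at 31805, 38750, 27731, 23873 and 28113 CPM in PTE+ and between 29119 and 75273 CPM in PTE-, with a median of 36872. The highest of the PTE- values belonged to mouse a8_11, and 1 PTE+ library lay above the PTE- median. The log2 fold change was -0.42 ± 0.18 (edgeR p = 0.0348, exact permutation p = 0.0566). Clu was at 9996, 11081, 7907, 9485 and 8177 CPM in PTE+ and at 8352 to 25784 CPM (median 11352) in PTE-, with mouse a8_11 again highest. Its log2 fold change was -0.46 ± 0.21 (edgeR p = 0.0412, exact permutation p = 0.10). Without contralateral PTE- a8_11 the log2 fold changes shrank to -0.25 for Apoe and -0.27 for Clu, and neither had a p under 0.05. Apoe kept its call in 10 of the 15 fits without 1 library, and the others were those without PTE+ a9_17, a9_18 or a9_19 and PTE- a8_11 or a9_13 (-0.39 to -0.25, edgeR p = 0.0564 to 0.0973). Clu kept it in 8, and lost it without PTE+ a8_10, a9_17, a9_18 or a9_19 and PTE- a8_11, a8_13 or a9_13 (-0.48 to -0.27, edgeR p = 0.0505 to 0.0975), and also when the compared groups were fitted alone (p = 0.0567) and with limma on log2(TPM + 1) and log2(TPM + 0.1) (p = 0.0708 and 0.0568).

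The mouse names carry a prefix, a8 or a9, whose meaning the labels do not give. Within a8 the difference in mean log2(CPM + 1) between PTE+ and PTE- was -0.45 for Lcat, -0.32 for Apoe and -0.48 for Clu, and within a9 it was -0.49, -0.43 and -0.33. The direction was thus the same within both prefixes for the 3 genes. Within a9, with 3 and 6 libraries, the exact permutation p was 0.0357 for Lcat, 0.0357 for Apoe and 0.179 for Clu. Within a8, with 2 and 4 libraries, the exact permutation p was 0.333, 0.6 and 0.333.

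**Figure D3:**
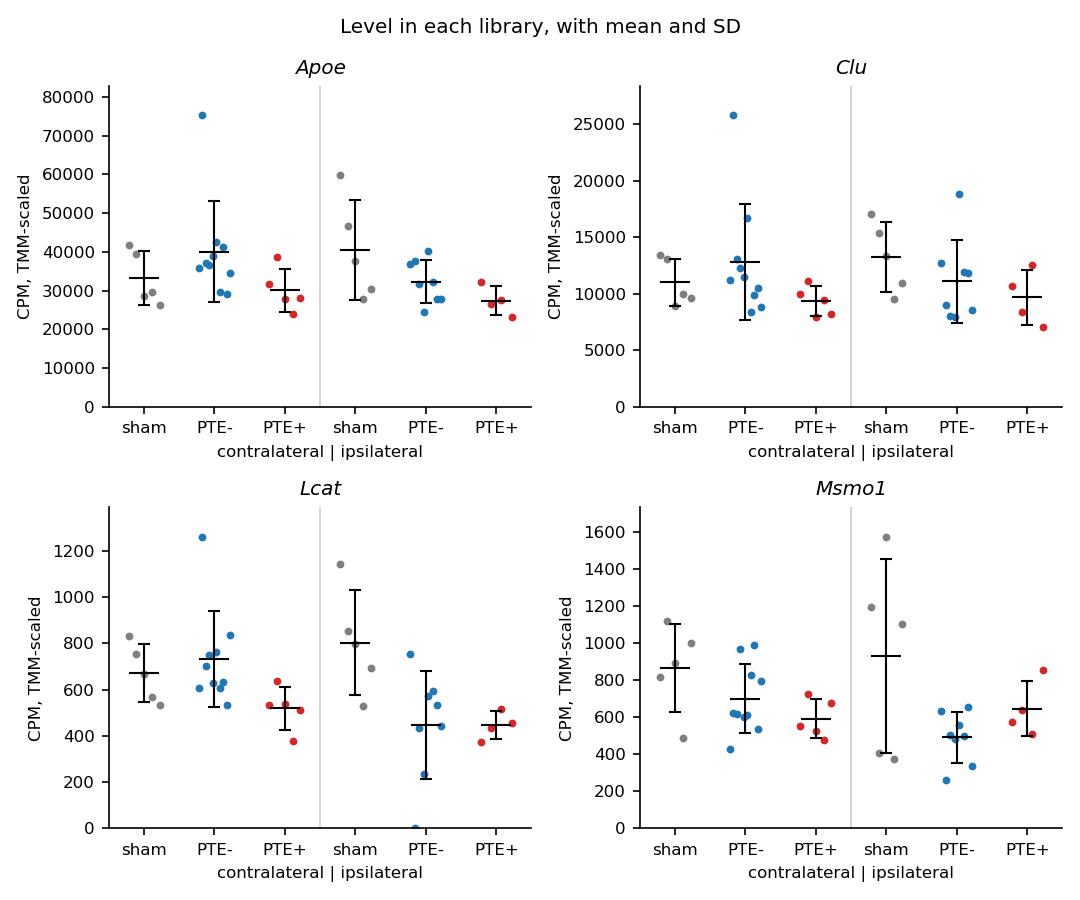
CPM of Apoe, Clu, Lcat and Msmo1 in each library by group and hemisphere, with the mean ± SD (grey sham, blue PTE-, red PTE+). Contralateral Lcat lies at 378 to 637 CPM in PTE+ and 533 to 1261 CPM in PTE-, and ipsilateral Msmo1 spreads most in sham, from 376 to 1575 CPM.

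The rest of the export step gave no call with all libraries. Abca1 had 45.2 to 81.2 CPM in PTE+ and 6.33 to 181 CPM in PTE- (log2 fold change -0.83 ± 0.49, edgeR p = 0.102). Without PTE- a8_14, the library at 6.33 CPM, Abca1 was called (-0.97, edgeR p = 0.0122). Abcg1, at 0.102 to 14.3 CPM across both groups, had a log2 fold change of 0.36 ± 1.07. As a step, 4 of the 5 export genes were below 0 with a median of -0.46, beside -0.05 for all genes tested. The count stayed at 4 of 5 in each alternative fit, and the median was -0.24 on TPM values, where all genes had a median of 0.28.

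The other steps showed no call in this comparison with all libraries. Without the PTE- libraries a9_14 and a9_20, which had fewer than 12000 detected genes, Fdft1 was also called (-0.41, edgeR p = 0.0339). In that fit 4 members met the criteria, beside 257 of all genes. The regulator Srebf2 was at 187 to 268 CPM in PTE+ and 109 to 347 CPM in PTE- (log2 fold change -0.07 ± 0.24), and Hmgcs1 at 195 to 574 and 191 to 614 CPM (0.07 ± 0.25). Of the 18 synthesis genes 8 were above and 10 below 0, with a median of -0.08. Over all 35 genes 24 were below 0 and the median was -0.24, and leaving out Apoe, Clu and Lcat the other 32 had a median of -0.15. The direction over the list depended on the scale. In limma fits on log2(TPM + 1), 18 of the 35 genes were above 0 and the median was 0.05, while the median of all genes moved from -0.05 to 0.28.

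Markers of other cells moved with this comparison. All 6 endothelial markers were above 0 in PTE+ against PTE- (median log2 fold change 0.90, summed 792 to 5570 TPM in PTE+ and 384 to 2006 TPM in PTE-), as were all 8 neuronal markers (median 1.3, summed 56.8 to 1109 and 85.9 to 260 TPM). All 10 astrocyte markers were below 0 (median -0.20). The summed astrocyte level was 13730 to 15851 TPM in PTE+ and 12967 to 19036 TPM in PTE-. In each of the endothelial and neuronal lists and in the astrocyte list 1 marker had an unadjusted p under 0.05. Their part in the lower Lcat, Apoe and Clu was not tested.

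On the same side, PTE- was compared with sham to ask what the injury alone went with. No member had an unadjusted p under 0.05 by edgeR, where 1.54% of all genes did, and none of 33 met the criteria, where 0.977% of all genes did. DESeq2 gave 1 member, Insig2, beside 366 of all 14642 genes with an unadjusted p under 0.05. The smallest edgeR p-values were those of Insig2, an anchor of the SREBP complex (56.1 ± 23.4 CPM in PTE- and 32.2 ± 11.5 in sham, log2 fold change 0.80 ± 0.39, p = 0.0513), and Cyp51, the demethylase of lanosterol (169 ± 71.2 and 260 ± 84.0 CPM, -0.62 ± 0.32, p = 0.0631). Both ranges overlapped, from 20.5 to 93.2 against 19.8 to 49.0 CPM for Insig2 and from 64.2 to 284 against 184 to 387 CPM for Cyp51. The sterol desaturase Sc5d came next (-0.57 ± 0.36, p = 0.123). Of the 35 genes 20 were above 0 with a median of 0.10, beside 0.07 for all genes, and on log2(TPM + 1) 12 were above 0 with a median of -0.09, beside -0.22 for all genes.

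PTE+ against sham on the contralateral side gave 1 member, Msmo1, beside 1.23% of all genes with an unadjusted p under 0.05. It was also the 1 of 33 that met the criteria, beside 0.66% of all genes. Msmo1 was at 554, 724, 528, 477 and 677 CPM in PTE+ and at 817, 1122, 895, 490 and 1001 CPM in sham. The sham library of mouse a9_10 lay within the PTE+ range and the other 4 above it. The means were 592 ± 104 and 865 ± 239 CPM (log2 fold change -0.55 ± 0.24, edgeR p = 0.0309, two-sided exact permutation p = 0.0635). The call was kept in 5 of the 10 fits without 1 library and lost without PTE+ a8_10, a9_17 or a9_18 and sham a8_16 or a9_11 (-0.52 to -0.44, edgeR p = 0.0555 to 0.0916). With limma on log2(TPM + 1) and log2(TPM + 0.1) Msmo1 had p = 0.0540 and 0.0512, and the 1 member that met the criteria was Lcat (-0.35, p = 0.0344 and 0.0219). Within the name prefixes the difference in mean log2(CPM + 1) was -0.60 in a8 and -0.45 in a9. Lcat followed at 519 ± 92.8 and 670 ± 126 CPM (-0.37 ± 0.21, edgeR p = 0.0983), and Scap, the escort protein of SREBP, at 117 ± 33.3 and 75.7 ± 33.8 CPM (0.63 ± 0.38, p = 0.108). Of the 35 genes 25 were below 0 with a median of -0.18, beside 0.03 for all genes. All 5 export genes were below 0 in this comparison, from -0.05 to -0.48, and none had a p under 0.05. All 6 endothelial markers were again above 0 (median 0.97, summed 792 to 5570 TPM in PTE+ and 534 to 1689 TPM in sham), as were 6 of 8 microglial markers (median 0.73, summed 315 to 608 and 144 to 522 TPM), and 8 of 10 astrocyte markers were below 0 (median -0.25, summed 13730 to 15851 and 14402 to 21745 TPM). Their part in these differences was not tested.

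On the ipsilateral side, the hemisphere of the impact, PTE+ and PTE- were not separated by any member. No cholesterol gene had an unadjusted p under 0.05 by edgeR or DESeq2, where edgeR called 1.75% of all genes, and none of 34 met the criteria, where 0.647% of all genes did. Apoe was at 32207, 26545, 27664 and 23116 CPM in PTE+ and at 24484 to 40248 CPM (median 31930) in PTE- (log2 fold change -0.24 ± 0.18, edgeR p = 0.189). Clu had -0.20 ± 0.22 and Abca1 -0.40 ± 0.57, while Srebf2 had 0.09 ± 0.35 and Hmgcs1 0.16 ± 0.28. Npc2, which passes cholesterol out of lysosomes, had -0.44 ± 0.34 (p = 0.204) with mouse a8_11 highest of all at 473 CPM, and Soat2 had 1.32 ± 1.01 (p = 0.206) at about 1 CPM or less in each library. Over the 35 genes 18 were above 0 and the median was 0.04, beside -0.01 for all genes. On log2(TPM + 1) 26 were above 0 and the median was 0.35, beside 0.25 for all genes.

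With all libraries, PTE- against sham on the ipsilateral side was the comparison in which the synthesis genes lay lowest. Msmo1 was the 1 member with an unadjusted p under 0.05, beside 1.58% of all genes, and the 1 of 34 that met the criteria, beside 1.31%. It was at 263 to 656 CPM (median 501) in the 8 PTE- libraries and at 1194, 409, 1575, 376 and 1102 CPM in sham. No PTE- library reached the sham median, but 2 sham libraries, of mice a8_16 and a9_10, lay within the PTE- range. The means were 491 ± 136 and 931 ± 523 CPM (log2 fold change -0.92 ± 0.32, edgeR p = 0.00883, two-sided exact permutation p = 0.0785). The call was kept in 12 of 13 fits without 1 library and lost without sham a9_9 (-0.65, edgeR p = 0.0564) and with limma on log2(TPM + 1) and log2(TPM + 0.1) (p = 0.0830 and 0.0836). Without the libraries under 12000 detected genes it was -0.55 (p = 0.106), and within prefixes the difference in mean log2(CPM + 1) was -0.67 in a8 and -0.81 in a9.

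Leaving out the ipsilateral PTE- library of mouse a8_11 raised the number of members from 1 to 5, beside 1.95% of all genes with an unadjusted p under 0.05. These 5 all met the criteria. Besides Msmo1 (-0.80, edgeR p = 0.0164) they were Lcat (-0.62, p = 0.0143), Fdps (-0.54, p = 0.0161) and Cyp51 (-0.56, p = 0.0421), which were lower in PTE-, and Abca1 (0.96, p = 0.0446), which was higher. With that library included, Lcat was at 446 ± 233 CPM in PTE- and 803 ± 226 CPM in sham (-0.85 ± 0.58, p = 0.159), and Abca1 at 99.9 ± 56.1 and 58.4 ± 30.7 CPM (0.78 ± 0.54, p = 0.165). Fdps had -0.38 ± 0.29 (p = 0.201) in that fit.

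The 11 squalene and sterol genes were all below 0 in that comparison, from -0.92 (Msmo1) to -0.32 (Ebp, the sterol isomerase), with a median of -0.53, beside 0.02 for all genes. Besides Msmo1 the lowest were Sc5d (-0.91 ± 0.79) and Cyp51 (-0.78 ± 0.81), and the standard errors of the genes other than Msmo1 and Fdft1 ran from 0.62 to 1.02. The median was -0.32 without PTE- a8_11 and -0.39 without the libraries under 12000 detected genes, and 11 of 11 stayed below 0 in both. On log2(TPM + 1) 10 of 11 were below 0. Of the 7 mevalonate genes 5 were below 0 (median -0.40), among them Hmgcs1 at 379 ± 126 CPM in PTE- and 500.4 ± 124 CPM in sham (-0.40 ± 0.26, p = 0.142). The regulators were split at 3 above and 3 below 0. Apoe had 32319 ± 5538 and 40449 ± 13000 CPM (-0.32 ± 0.16, p = 0.0585 by edgeR, and p = 0.307 by DESeq2). By limma on log2(TPM + 1) its p was 0.0182, with a log2 fold change of -0.255 that was under the fold limit.

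The number of the 18 synthesis genes above their median over the hemisphere was 0 to 12 per ipsilateral PTE- library (median 6.5), 6 to 12 in PTE+ (median 8.5) and 3 to 16 in sham (median 13). On the contralateral side it was 5 to 11 in PTE- (median 9), 2 to 13 in PTE+ (median 7) and 5 to 15 in sham (median 12). Of all tested genes, 27.3% to 52.5% lay above their median in ipsilateral PTE- libraries, 41.7% to 54.9% in PTE+ and 35.2% to 54.8% in sham. The contralateral shares were 38.3% to 56.5%, 47.2% to 56.0% and 40.6% to 58.7%. In ipsilateral PTE- a8_11 the count was 5 of 18, beside 27.3% of all genes. Of the cell type markers, all 7 oligodendrocyte markers tested were below 0 in ipsilateral PTE- against sham (median -1.79, summed 471 to 1142 and 382 to 2149 TPM), and 8 of 10 astrocyte markers were below 0 (median -0.36). Oligodendrocytes also make cholesterol, for myelin, and the part of either cell type in the lower synthesis values was not tested.

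**Figure D4:**
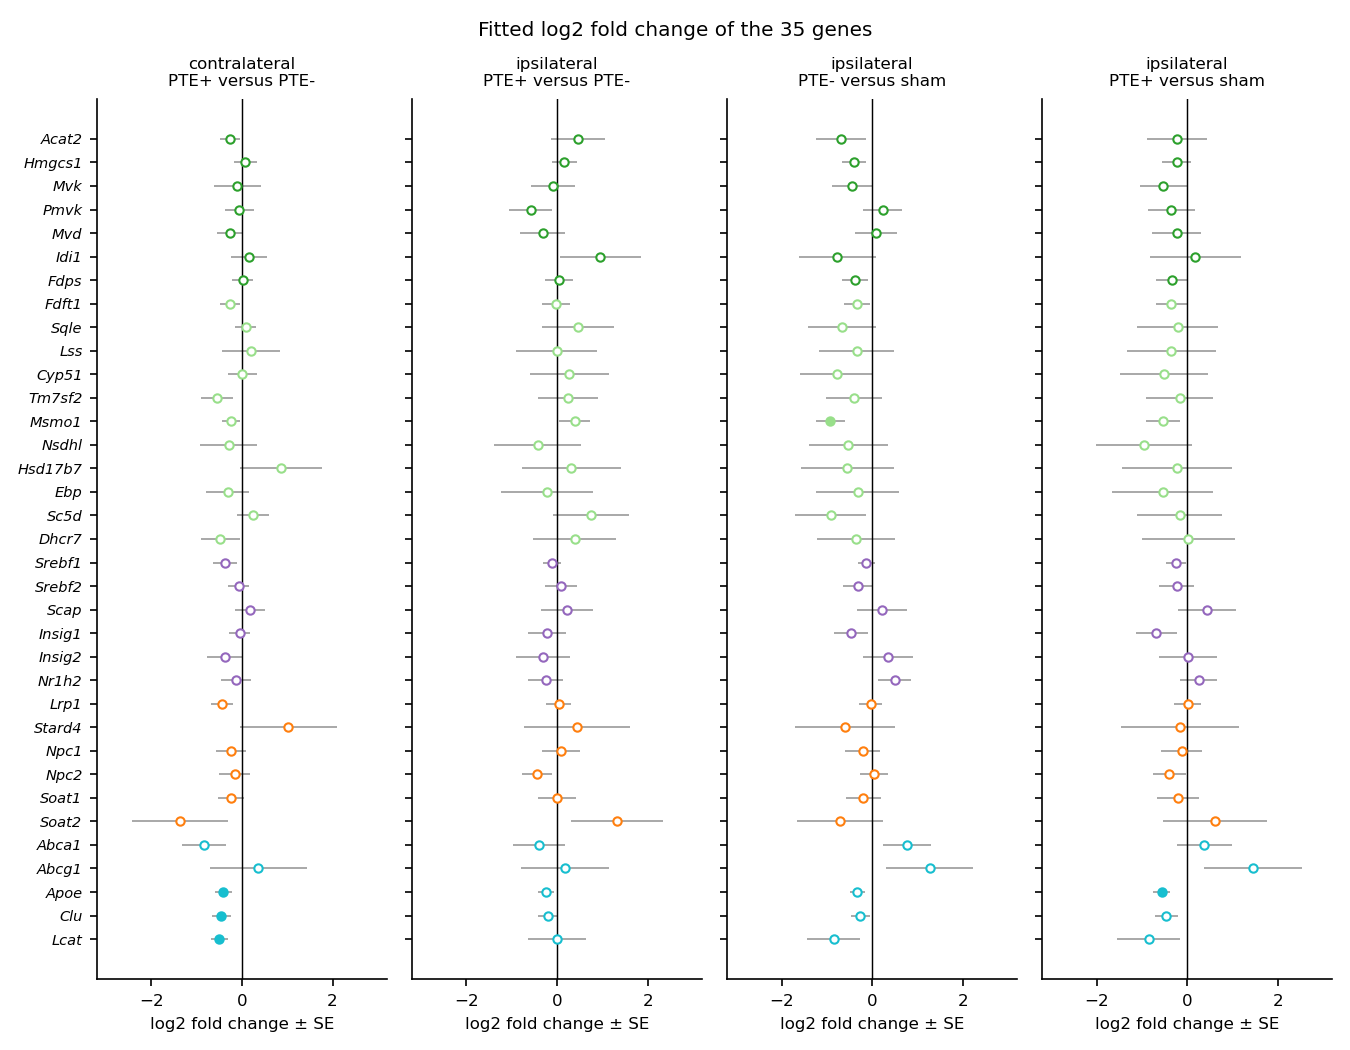
Fitted log2 fold change ± SE of the 35 genes by edgeR in the 4 comparisons named on the panels, with a filled point for an unadjusted p under 0.05 (dark green mevalonate steps, light green squalene and sterol steps, purple regulators, orange uptake, transport and esterification, cyan export and lipoproteins). Lcat, Apoe and Clu are filled in contralateral PTE+ versus PTE-, Msmo1 in ipsilateral PTE- versus sham and Apoe in ipsilateral PTE+ versus sham.

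PTE+ against sham on the ipsilateral side used the same 5 sham libraries, so its values are not independent of those just given. Apoe was the 1 member with an unadjusted p under 0.05, beside 1.66% of all genes, and the 1 of 34 that met the criteria, beside 0.64%. It was at 32207, 26545, 27664 and 23116 CPM in PTE+ and at 59720, 46552, 37714, 27771 and 30487 CPM in sham. All 4 PTE+ libraries lay below the sham median, and 2 sham libraries lay below the highest PTE+ library. The means were 27383 ± 3753 and 40449 ± 13000 CPM (log2 fold change -0.56 ± 0.19, edgeR p = 0.00885, two-sided exact permutation p = 0.0873). The call was kept in all 9 fits without 1 library and was lost with DESeq2 (-0.48, p = 0.0589) and with the 2 groups fitted alone (-0.49, edgeR p = 0.0837). Within prefixes the difference in mean log2(CPM + 1) was -0.71 in a8, with 1 PTE+ library, and -0.30 in a9. Clu followed at 9667 ± 2421 and 13274 ± 3079 CPM (-0.46 ± 0.25, edgeR p = 0.0783) and Insig1 at 197 ± 109 and 316 ± 113 CPM (-0.68 ± 0.45, p = 0.153).

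The squalene and sterol genes stood at 10 of 11 below 0 in ipsilateral PTE+ against sham, and none had a p under 0.05. Their median of -0.35 was no higher than that of ipsilateral PTE- against sham without PTE- a8_11. Without sham a9_9 alone 7 of 11 were below 0, and on log2(TPM + 1) 6 of 11 were. Over the 35 genes 26 were below 0 with a median of -0.23, beside 0.00 for all genes, and on log2(TPM + 1) 19 were above 0 with a median of 0.03, beside 0.17 for all genes. All 7 oligodendrocyte markers were below 0 here as well (median -1.57), and 9 of 10 astrocyte markers (median -0.25). Their part in the lower Apoe was not tested.

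Hemispheres were compared in the mice that gave both, by a main fit that ignored which libraries came from the same mouse. In the 8 PTE- mice 4 members had an unadjusted p under 0.05, all lower on the ipsilateral side, beside 4.56% of all genes. Of the 34 above the TPM limit 3 met the criteria (Apoe, Msmo1 and Fdft1), beside 2.43% of all genes. Fdft1, the first enzyme committed to sterols, was lower ipsilaterally in 8 of 8 mice, at 355 ± 110 CPM against 482 ± 98 CPM (log2 fold change -0.44 ± 0.21, edgeR p = 0.0459). Flipping the sign within mice in all ways gave an exact p = 0.00781, the smallest that 8 mice allow. Msmo1 was lower in 7 of 8 mice, at 488 ± 136 against 705 ± 204 CPM (-0.53 ± 0.25, edgeR p = 0.0394, exact sign-flip p = 0.0391). Apoe was lower in 6 of 8, at 32124 ± 5485 against 41570 ± 15038 CPM (-0.37 ± 0.16, edgeR p = 0.0286, exact sign-flip p = 0.0625), and without mouse a8_11 its log2 fold change was -0.20 (edgeR p = 0.131). The fourth, Soat2, had 0 to 0.28 CPM ipsilaterally and 0.12 to 3.92 CPM contralaterally, or 0 to 126 counts per library, and its adjusted p of 0.545 by edgeR was the smallest of any member in any comparison. With the mouse as a block, Apoe (-0.32, p = 0.00684), Msmo1 (-0.54, p = 0.0223) and Fdft1 (-0.47, p = 0.0256) kept an edgeR p under 0.05 and Soat2 did not (-2.11, p = 0.12). In that paired fit 315 of all 15731 genes had such a p. With RLE size factors in place of TMM none of the 3 kept it (edgeR p = 0.0790 for Apoe, 0.0556 for Msmo1 and 0.0860 for Fdft1), and the 1 member that met the criteria was Abcg1, higher on the ipsilateral side (1.83, p = 0.0464, beside 1.64 ± 0.87 and p = 0.0696 with TMM). With DESeq2 and the block, Abcg1 (2.25, p = 0.00384) and Msmo1 (-0.45, p = 0.0463) met the criteria, Fdft1 had p = 0.0552, and Apoe (-0.24, p = 0.0337) was under the fold limit. Leaving out 1 mouse at a time, Apoe lost its call without a8_11, a9_12 or a9_15, Msmo1 without any of 6 mice (a8_11, a8_14, a9_12, a9_14, a9_15 or a9_16, edgeR p = 0.0505 to 0.10) and Fdft1 without any of 5 (a8_14, a9_12, a9_13, a9_14 or a9_16, edgeR p = 0.0506 to 0.213). Without the mice that had a library under 12000 detected genes none of the 4 had an edgeR p under 0.05. Markers of other cells differed here as well. Of the oligodendrocyte markers 6 of 8 were lower ipsilaterally (median log2 fold change -0.89), of the astrocyte markers 8 of 10 (median -0.08, 2 with an unadjusted p under 0.05), and 7 of 8 neuronal markers were higher (median 0.63). Over all PTE- libraries, 8 ipsilateral and 10 contralateral, the summed levels were 471 to 1142 and 275 to 1238 TPM for oligodendrocytes, 5860 to 19182 and 12967 to 19036 TPM for astrocytes, and 59.0 to 690 and 85.9 to 260 TPM for neurons. Their part in the lower values was not tested.

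**Figure D5:**
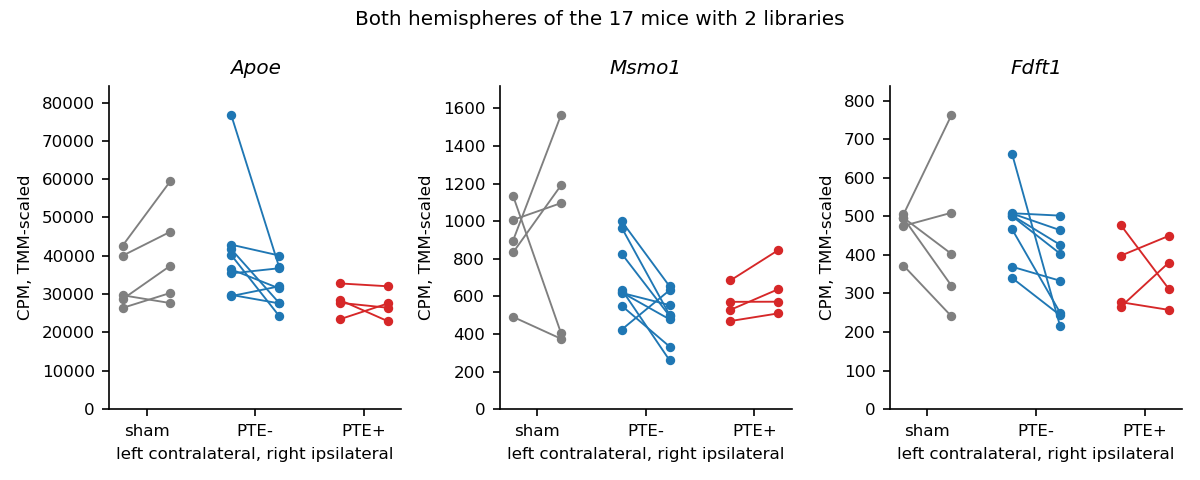
CPM of Apoe, Msmo1 and Fdft1 in the contralateral (left) and ipsilateral (right) hippocampus of each of the 17 mice with both, joined by a line per mouse. Fdft1 is lower on the ipsilateral side in 8 of 8 PTE- mice and Msmo1 in 7 of 8.

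In PTE+ mice no member had an unadjusted p under 0.05 by edgeR with or without the mouse as a block, or by DESeq2 with the block, beside 2.93% of all genes by edgeR (criteria 0 of 34, all genes 0.613%). The smallest p-values were those of Abcg1 (1.48 ± 1.23, p = 0.236), Srebf1 (0.32 ± 0.28, p = 0.247) and the lipoprotein receptor gene Lrp1 (0.32 ± 0.31, p = 0.312). Srebf1 and Lrp1 were higher ipsilaterally in 4 of 4 mice, for which the exact sign-flip p cannot go below 0.13. In the 5 sham mice there was likewise no member by the same 3 fits, beside 2.05% of all genes (criteria 0 of 33, all genes 0.234%), and Apoe lay higher ipsilaterally in 4 of 5 mice (0.26 ± 0.21, p = 0.206). The medians over the 35 genes were 0.05 in PTE+, -0.09 in PTE- and 0.09 in sham.

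The difference between the hemispheres in the PTE+ against PTE- contrast was tested as an interaction. No member had an unadjusted p under 0.05 by edgeR, beside 1.16% of all genes. The smallest were Msmo1 (0.71 ± 0.37, p = 0.0690), Tm7sf2, a sterol reductase (1.44 ± 0.91, p = 0.131), and Apoe (0.28 ± 0.18, p = 0.144). The lower Lcat, Apoe and Clu of contralateral PTE+ libraries were thus not shown to differ from the ipsilateral values. Of the 35 genes 28 were above 0 (median 0.23, all genes -0.02). The interaction was fitted with PTE- mouse a8_11 included and not without it. In that mouse Tm7sf2 was at 1.68 CPM ipsilaterally and 107 CPM contralaterally, and Idi1, Cyp51, Nsdhl, Ebp and Dhcr7 had no ipsilateral count. The part of that library in these values was not tested.

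Of 58 further genes of the pathway, 56 were tested. They comprised the proteins that process and degrade the sensors, lipoprotein receptors and lipases, other apolipoproteins and transporters, oxysterol enzymes, sterol carriers, fatty acid synthesis and branches of the mevalonate pathway. Apod, which encodes apolipoprotein D of the lipocalin family, was the 1 with an unadjusted p under 0.05 in contralateral PTE+ against PTE- (169 ± 108 and 328 ± 167 CPM, log2 fold change -0.95 ± 0.45, edgeR p = 0.0450, exact permutation p = 0.0440), with a call in 6 of the 15 fits without 1 library and a difference in mean log2(CPM + 1) of -0.17 within prefix a8 and -1.56 within a9. On the ipsilateral side Apod was higher in PTE- than in sham (340.0 ± 191 and 148 ± 79.5 CPM, 1.2 ± 0.44, edgeR p = 0.0134, exact permutation p = 0.0225), and each of the 8 PTE- libraries lay above the sham median. The difference in mean log2(CPM + 1) there was 0.40 within prefix a8 and 1.79 within a9. Stard3, which encodes a sterol transfer protein of late endosomes, was higher in contralateral PTE- than in sham (81.8 ± 33.8 and 42.5 ± 6.64 CPM, 0.95 ± 0.32, edgeR p = 0.00743, exact permutation p = 0.0103), with 9 of 10 PTE- libraries above the sham median. None of the 56 had such a p in the other comparisons by edgeR. Of all genes, 2.21% had such a p in contralateral PTE+ against PTE-, 1.54% in contralateral PTE- against sham and 1.58% in ipsilateral PTE- against sham. A count of 1 among the 56 in a comparison is about what these shares give.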

How the data were processed

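RNA of ACSA-2 selected hippocampal astrocytes was amplified with SMART-Seq V4 and sequenced as paired ends. Per the labels and the study's methods, the authors removed adapters and low-quality bases by Trim Galore 0.6.4, mapped reads to mm10 with RSEM 1.2.28 and Bowtie2 2.4.1, and deposited for each hemisphere 1 table of RSEM expected counts and 1 of TPM (20 contralateral and 17 ipsilateral libraries) (DESeq2 1.36.0 is also named). RSEM divides reads shared between near-identical copies, so counts of genes with such copies are estimates, and strand was not given in the sources used here. The amplification used no molecular identifiers, so counts are reads and not molecules.

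The deposited expected counts, which were whole numbers, were tested with edgeR 4.0.16 in R 4.3.3 (TMM, filterByExpr, glmQLFit, glmQLFTest), with Benjamini-Hochberg adjustment over all genes. Total counts of 25371887 to 59846479 set the precision, and the common biological coefficient of variation was 1.32 contralaterally and 1.40 ipsilaterally. A gene was detected in a library at a count above 0, and the floor of 3 counts used for single genes covers counting error only. The 3 groups of a hemisphere shared 1 fit. Hemispheres were compared in a fit of the 34 libraries of the 17 mice with both, without the mouse as a block. Single genes were also tested by two-sided exact permutation of log2(CPM + 1). Named genes were members with an unadjusted p under 0.05, the 3 smallest p-values per comparison, Apoe, Clu, Abca1, Srebf2 and Hmgcs1 in PTE+ against PTE-, and other pathway genes with an unadjusted p under 0.05. Alternatives were RLE size factors, no filter on low counts, the compared groups alone, the name prefix as a covariate, DESeq2 1.42.0, limma 3.58.1 on log2(TPM + 1) and log2(TPM + 0.1), each library left out in turn, and the mouse as a block. Leaving out libraries with fewer than 12000 detected genes and flipping signs within mice were chosen after seeing the data. Members and lists were chosen with earlier results of these data known. Scripts were tested on simulated counts. Same-mouse libraries deviated together weakly (correlation of deviations from the group means -0.03 to 0.31, median 0.08 over 17 mice, and median -0.02 over 88 pairs of different mice of a group). The pairing comes from the mouse names in the labels. No 2 libraries held the same values. The 37 libraries came from 20 mice, 17 of which gave both hemispheres, and the libraries of a group within a hemisphere came from separate mice. Figures were drawn with matplotlib 3.10.9.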

Additional observations from a re-analysis of the deposited data

Results flagged for a closer look

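In groups of 4 to 10 libraries, 132 groups of values of 18 named genes were searched for a library far from the others of its group (Dixon's rule at 95%), and 17 were found, where chance alone gives about 1 in 20. Of these, 6 were in the ipsilateral PTE- library of mouse a8_11. Its Lcat stood at 3.54 CPM beside 237 to 754 CPM in the other 7, Abca1 at 19.1 beside 80.9 to 221, Cyp51 at 0 beside 105 to 200, Sc5d at 0.0258 beside 20.7 to 94.0, and Scap at 3.43 beside 69.1 to 135, while Npc2 was high at 473 beside 159 to 257 CPM. The contralateral library of the same mouse was far above the other 9 for Lcat (1261 CPM beside 533 to 838) and Apoe (75273 beside 29119 to 42553).

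Ipsilateral sham a9_9 was low for Abca1 (8.26 CPM beside 54.5 to 83.9) and Insig2 (4.30 beside 47.0 to 83.1) and high for Hmgcs1 (723 beside 437 to 452). Contralateral PTE+ a9_18 was high for Scap (177 CPM beside at most 105) and low for Srebf1 (454 beside 555 to 575). Contralateral PTE- a8_14 was low for Abca1 (6.33 CPM beside 40.8 to 181) and a9_20 for Npc2 (36.5 beside 156 to 433). In contralateral sham, a8_16 was high for Hmgcs1 (601 CPM beside 444 to 472) and a9_10 was low for Fdft1 (372 beside 472 to 495). The causes were not tested.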

How the results depend on the processing

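Members meeting the 3 criteria were 3 in contralateral PTE+ against PTE- (all genes 185). They were 1 (Lcat) with limma on either TPM scale (all genes 580 and 510), and 0 to 4 when a library was left out. In contralateral PTE- against sham they were 0 (all genes 110), but 1 with RLE size factors or DESeq2 (all genes 116 and 242). They were 2 without the libraries under 12000 detected genes (all genes 179), and 0 to 2 leaving out a library. Contralateral PTE+ against sham gave 1 (Msmo1, all genes 75, but Lcat with limma, all genes 173 and 133), or 0 to 2 leaving out a library. Ipsilateral PTE- against sham gave 1 (all genes 147), but 0 with limma (all genes 388 and 280), and 0 to 5 leaving out a library. It gave 2 without the filter, with the prefix as a covariate or without the libraries under 12000 detected genes (all genes 163, 143 and 208). Ipsilateral PTE+ against sham gave 1 (all genes 73), but 0 with DESeq2 (all genes 113), and 1 to 2 leaving out a library. It gave 2 with the compared groups alone (Lcat and Nsdhl, all genes 157) or with the prefix (Apoe and Insig1, all genes 75). It also gave 2 (Apoe and Lcat, all genes 324) without all ipsilateral libraries under 12000 detected genes, those of PTE- in the shared fit included. For the hemispheres, PTE- mice gave 3 (all genes 276), 1 with RLE size factors (Abcg1, higher ipsilaterally, all genes 333), and 1 to 4 leaving out a mouse. They gave 0 without the mice with a library under 12000 detected genes (all genes 292) and 2 with DESeq2 and the block (Abcg1 and Msmo1, all genes 1180). Sham mice gave 0 (all genes 26), also leaving out each sham mouse, but 1 (Insig2, all genes 45) without all mice, PTE- included, that had such a library. With the mouse as a replicate block the count in PTE- mice stayed at 3, while all genes with an unadjusted p under 0.05 went from 717 to 315. Members' medians changed sign with limma on log2(TPM + 1) and log2(TPM + 0.1) in contralateral PTE+ against PTE- (0.0532 and 0.0560), contralateral PTE- against sham (-0.0949 and -0.0964) and ipsilateral PTE+ against sham (0.0275 and 0.0292). They also did in PTE+ mice between hemispheres with the mouse as a replicate block (-0.00579) and in ipsilateral PTE+ against PTE- without PTE+ a9_18, PTE+ a9_19, PTE- a9_12 or PTE- a9_16 (lowest -0.0751, without a9_19).

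Log2 fold changes that changed sign were those of Srebf2 in contralateral PTE+ against PTE- with both limma scales (0.192 and 0.195) and of Hmgcs1 there without PTE+ a9_18 (-0.0670), PTE+ a9_19 (-0.0778) or PTE- a9_14 (-0.00514), over a range of -0.0778 to 0.252 leaving out a library. In ipsilateral PTE+ against PTE- they were those of Soat2 without PTE+ a9_19 (-0.0909, range to 1.65), Clu without PTE- a9_13 (0.00135, range from -0.351), Hmgcs1 without PTE+ a9_18 (-0.0647, range to 0.310), and Srebf2 without the libraries under 12000 detected genes (-0.0204), PTE+ a9_18 (-0.0319), PTE- a8_11 (-0.0207) or PTE- a9_16 (-0.00486, range to 0.212). None of these had a p under 0.05. Among the values of named genes under the other settings, library left out apart, 237 kept direction and side of the threshold, 23 lost and 11 gained an unadjusted p under 0.05 and 3 changed sign. The causes were not tested. A common coefficient of variation of 1.32 to 1.40 limits what groups of 4 to 10 libraries can show.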
